A study of Mus musculus with 6 samples.

Results

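The IL-2 and IL-15 receptor genes were described here by every T-bet peak that overlapped 1 of 2 windows of the mouse genome in build mm9. The first window, on chromosome 2 from 11480000 to 11700000, spans 220 kb and was laid around Il2ra and Il15ra. The other, on chromosome 15 from 78230000 to 78400000, spans 170 kb and was laid around Il2rb. Together they held 21 of the 8925 peaks in the 3 peak lists: 16 of 7996 in wild-type (WT) replicate 1, 5 of 851 in WT replicate 2 and 0 of 78 in the T-bet knockout (KO) list. The windows were set by position and not by peak score, but around genes with peaks already known in these data.

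The peaks come from chromatin immunoprecipitation and sequencing (ChIP-seq) of induced regulatory T cells (iTreg cells), with a custom rabbit serum against T-bet, number 9856. All groups were labelled as strain Balb/c; the WT group had 2 ChIP libraries and the T-bet-KO group 1, and the labels name no knockout allele. Donor mice were 4 to 10 weeks old. Their CD4+ T cells were sorted as naive CD25- CD62Lhigh CD44low cells, activated on bound antibodies to CD3 and CD28 at 10 µg/ml, and cultured for 7 days with TGF-β1 at 33 ng/ml and IL-2 at 20 ng/ml. CD25 is the product of Il2ra, so the cells were selected for lacking this chain at the start and were then exposed to its ligand, in WT and KO alike. The labels do not say whether libraries came from single or pooled mice, or whether the WT replicates were separate cultures; the spread between them may then be technical. Peak lists hold no expression values, and neither the iTreg label nor the loss of T-bet was checked against marker genes.

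IL-2 and IL-15 are related cytokines that share signalling parts. Il2ra encodes the α chain (CD25) that gives the receptor high affinity for IL-2, and regulatory T cells are known for high CD25. Il15ra encodes the α chain for IL-15, which can hold the cytokine on one cell and present it to another. Il2rb encodes the β chain (CD122), which both receptors use, together with the common γ chain, to signal through JAK kinases and STAT5. T-bet, encoded by Tbx21, belongs to the T-box family of DNA-binding proteins, whose members recognise a short core sequence; its main known role is in T helper 1 cells.

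In the RefSeq gene order, Il2ra and Il15ra are next to each other among protein-coding genes, flanked by Rbm17, an RNA-binding protein gene, and by Fbh1, a DNA helicase gene. Il2rb lies between Tmprss6, a membrane protease gene, and C1qtnf6. This order is taken from build GRCm38.p6. Gene positions in mm9 were not used here, so no peak below is assigned to a promoter, an intron or a single gene, and a peak within a window may belong to a neighbouring gene.

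The 250 bases before the start of Il2ra and of Il15ra are shown because they are the upstream sequences of 2 of the receptor genes and can be read for the letters that T-box factors recognise. They come from RefSeq, build GRCm38.p6, plus strand, at chr2:11642542-11642791 for Il2ra and at chr2:11705043-11705292 and chr2:11705462-11705711 for the 2 starts of Il15ra. These positions cannot be set beside mm9 positions, and no peak was placed on these sequences. Il2rb had no entry. Capitals mark the T-box core AGGTGT, which reads ACACCT on the opposite strand.
Il2ra: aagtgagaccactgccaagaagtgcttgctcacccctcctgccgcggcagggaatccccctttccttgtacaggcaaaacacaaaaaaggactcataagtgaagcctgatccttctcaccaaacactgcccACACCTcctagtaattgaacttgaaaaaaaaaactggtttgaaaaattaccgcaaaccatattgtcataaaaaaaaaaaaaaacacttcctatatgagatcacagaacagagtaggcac
Il15ra, first start: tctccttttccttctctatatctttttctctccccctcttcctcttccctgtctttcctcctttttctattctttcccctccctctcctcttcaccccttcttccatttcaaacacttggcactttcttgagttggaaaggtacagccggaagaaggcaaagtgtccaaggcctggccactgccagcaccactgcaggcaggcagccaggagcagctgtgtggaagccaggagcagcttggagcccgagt
Il15ra, other start: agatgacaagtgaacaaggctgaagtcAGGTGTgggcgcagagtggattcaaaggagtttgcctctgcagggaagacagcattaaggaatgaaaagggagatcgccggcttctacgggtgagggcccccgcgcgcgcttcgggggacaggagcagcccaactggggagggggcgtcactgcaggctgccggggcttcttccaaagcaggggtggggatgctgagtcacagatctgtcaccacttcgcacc

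The core was present once before Il2ra, beginning 119 bases before the start, and once before the other start of Il15ra, beginning 223 bases before it. It was not found in the sequence before the first start of Il15ra. Of the 32851 promoter entries of full length, 11.8% held the core in the same 250 bases on either strand, so a match is a common event. The STAT core TTCNNNGAA reads the same on both strands, and the RUNX core TGTGGT was searched on both. Neither was found in any of the 3 sequences. They occurred in 7.02% and 14.0% of the same full-length entries. These are matches of letters and not binding sites.

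WT replicate 1 held 9 peaks in the Il2ra and Il15ra window and 7 in the Il2rb window. WT replicate 2 held 4 peaks in the former and 1 in the latter. The KO library held none in either. Each value below is the score that the authors' peak caller gave to a peak. Its scale is not stated, so scores rank peaks within 1 list and are not compared between lists as amounts. Each peak is therefore also given its standing, the share of peaks in its own list with a lower score.

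All 5 replicate 2 peaks met a replicate 1 peak by at least 1 bp, and none of the 5 sites met a KO peak. Over the whole replicate 2 list, 85.4% of peaks met a replicate 1 peak, so 5 of 5 (exact 95% interval 47.8 to 100%, counting error over peaks only) is near that background. Among the 16 replicate 1 peaks, 5 recurred in replicate 2, a share of 31.2% (11.0 to 58.7%), against 9.50% over the whole list, or 9.08% when peaks met by KO are left out. The share was 4 of 9 in the Il2ra and Il15ra window (44.4%, 13.7 to 78.8%) and 1 of 7 in the Il2rb window (14.3%, 0.361 to 57.9%). The interval for Il2rb spans the background. As the windows were laid around genes with peaks already known, no interval here tests a share against the background. With 1 list per library these shares carry no test between groups.

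**Figure D1:**
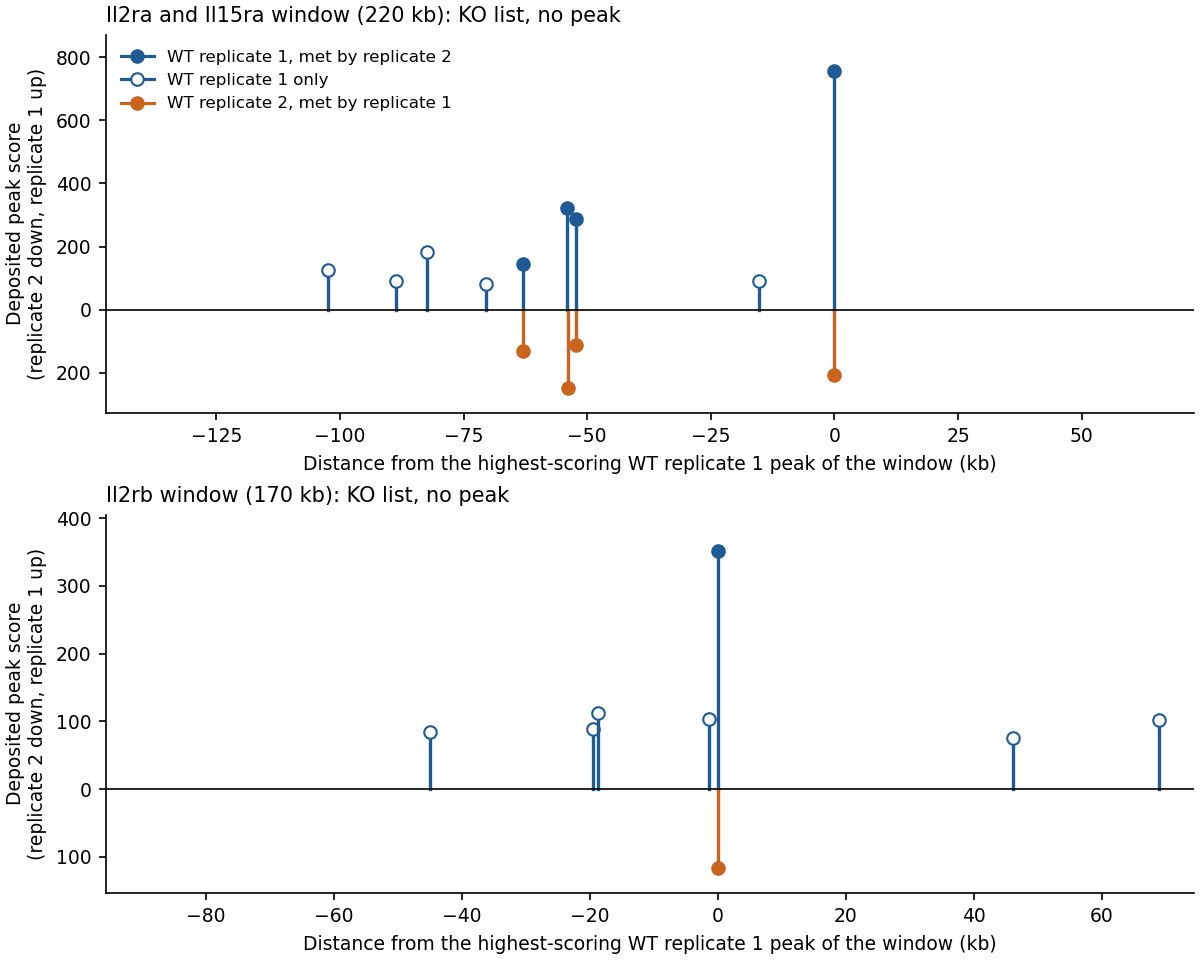
Deposited peak score (vertical axis; WT replicate 1 drawn upward, WT replicate 2 downward) against distance in kb from the highest-scoring replicate 1 peak of each window. Filled points are peaks met in the other WT list and open points are replicate 1 peaks alone: 4 filled pairs lie in the Il2ra and Il15ra window and 1 in the Il2rb window, and the KO list has no peak in either.

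The sites found in both WT lists are numbered in order of position. Site 1 lay on chromosome 2 from 11564126 to 11564412 in replicate 1, with a score of 145.35. In replicate 2 it ran from 11564100 to 11564729 and scored 130.65. It was the weakest of the 5 in replicate 1, where 69.2% of peaks scored lower, and the middle one in replicate 2, at 65.1%.

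Site 2 lay from 11573122 to 11573551 in replicate 1 and from 11573182 to 11573594 in replicate 2. Its scores were 322.29 and 246.39. The replicate 2 score was the highest of the 5, rank 70 of 851, and 91.8% of that list scored lower. In replicate 1 its rank was 507 of 7996 and its standing 93.7%. Standings come from lists of very unequal length and do not equate ranks.

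Site 3 was the neighbour of site 2, from 11575022 to 11575336 in replicate 1 and from 11574965 to 11575368 in replicate 2. Its scores were 286.97 and 110.22. It stood at 91.7% in replicate 1 and at 51.5% in replicate 2, where it was the lowest of the 5 and close to the middle of the list.

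Site 4 held the highest score of either window. It ran from 11627152 to 11627534 in replicate 1, with a score of 756.16, rank 58 of 7996. In replicate 2 it ran from 11627114 to 11627515 and scored 207.31, rank 110 of 851. It stood above 99.3% of replicate 1 peaks and 87.1% of replicate 2 peaks.

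Site 5 was the single shared site of the Il2rb window, on chromosome 15 from 78325457 to 78325824 in replicate 1 and from 78325447 to 78325889 in replicate 2. It scored 351.74 and 115.76. It was the next highest of the 5 after site 4 in replicate 1, with a standing of 94.9%, and the lowest but one in replicate 2, with a standing of 55.7%.

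The order of the sites therefore differed between the WT lists. By replicate 1 score it was site 4, site 5, site 2, site 3 and site 1. By replicate 2 score it was site 2, site 4, site 1, site 5 and site 3. Sites 2 and 4 were in the upper 3 places of both orders. Any 2 orders of 5 sites share at least 1 site there, so this is not read as agreement. No error can be put on a single score, and which neighbours in an order differ beyond error cannot be said.

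**Figure D2:**
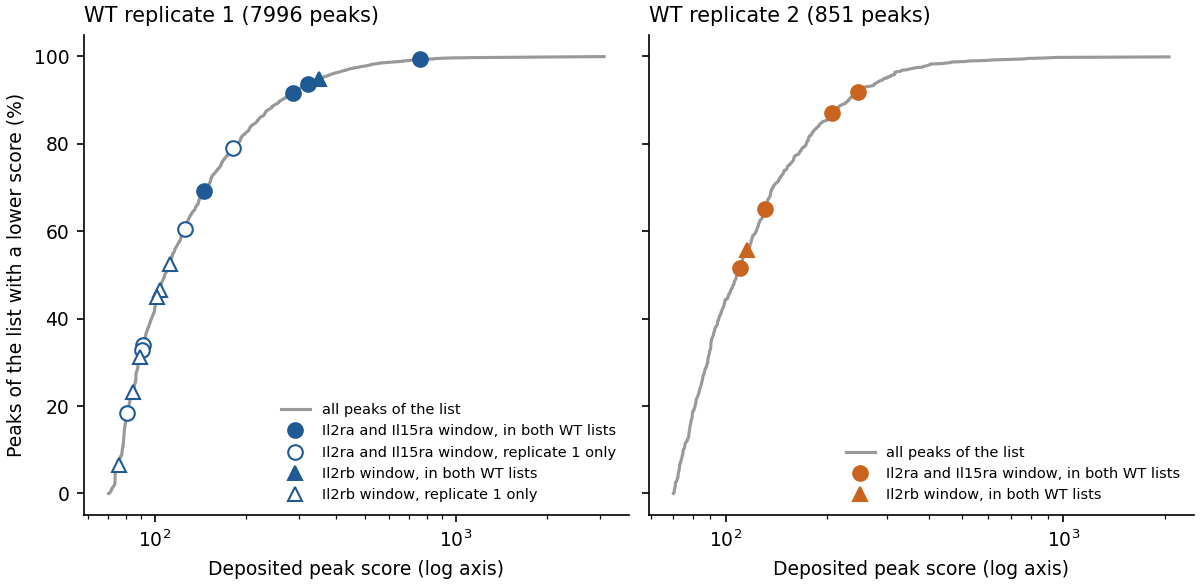
Share of peaks of the same list with a lower score (vertical axis, percent) against the deposited score (log axis), for WT replicate 1 and WT replicate 2. Grey lines are whole lists, circles the Il2ra and Il15ra window and triangles the Il2rb window: in replicate 1 the 5 filled points stand at 69.2% or higher and the open points reach 79.1%, and in replicate 2 all 5 stand at 51.5% or higher.

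As a group, the replicate 1 peaks of the windows had the same median score as their list, and the replicate 2 peaks a higher one than theirs. In replicate 1 the median score of the 16 peaks was 108, as over the whole list (108), and 8 of the 16 lay above the list's median. The Il2ra and Il15ra window had a median of 145 with 6 of 9 peaks above the list's median, and the Il2rb window a median of 102 with 2 of 7. In replicate 2 the 5 peaks had a median of 131, against 108 for that list, and all 5 lay above its median.

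Replicate 1 peaks of the windows that recurred in replicate 2 scored higher than most of those that did not. The 5 recurring peaks had a median of 322 and a range of 145.35 to 756.16. The 11 others had a median of 91.1 and a range of 75.77 to 182.22, so the groups overlapped at site 1 alone. Over the whole list the medians were 261 for recurring and 103 for other peaks.

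The peaks of replicate 1 alone were spread over both windows. In the Il2ra and Il15ra window the highest of them lay from 11544809 to 11545115, with a score of 182.22 and a standing of 79.1%. It scored above site 1 in the same list, yet replicate 2 had no peak there. The next, from 11524866 to 11525078, scored 126.07, and the third, from 11538519 to 11538793, scored 91.10. These 3 lay 19.3, 39.3 and 25.6 kb from site 1, all on its low-coordinate side. The remaining pair scored 80.94 and 90.24 and lay 7.39 kb from site 1 and 15.2 kb from site 4.

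In the Il2rb window the highest unshared peak, from 78306771 to 78306962, scored 112.55. The next, from 78324078 to 78324331, scored 103.64 and lay only 1.44 kb from site 5, measured between midpoints. The third, from 78394462 to 78394627, scored 101.86 and lay 68.9 kb away. The other three scored 75.77 to 89.48. None of the 6 had a standing above 52.6%.

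The sites had nearly the same spacing in both WT lists. This follows from how they were defined, as the peaks of a site overlap, and it is no separate evidence of agreement. Between midpoints, site 1 and site 2 were 9.07 kb apart in replicate 1 and 8.97 kb in replicate 2, and sites 2 and 3 were 1.84 and 1.78 kb apart. Sites 1 to 3 thus formed a group within 10.9 kb, and site 4 lay 52.2 kb beyond site 3 in replicate 1 and 52.1 kb in replicate 2. Between site 3 and site 4, replicate 1 had 1 weak peak (score 90.24) and replicate 2 none.

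The outlines of the peaks matched closely at 4 of the 5 sites. Midpoints differed by 12.5 to 51.5 bp at sites 2 to 5, and the median absolute difference over all 695 one-to-one pairs of the lists was 28.5 bp. Site 1 was the exception, with the replicate 2 midpoint 145.5 bp to the right; 2.16% of all pairs differed by at least as much. There the replicate 2 peak was 630 bp wide and the replicate 1 peak 287 bp, and the additional 317 bp lay on the right side. Replicate 1 peaks were covered by 86.0 to 100% of their width, against a median of 95.9% over all pairs. Replicate 2 was wider at 4 of the 5 sites, and at 66.8% of all pairs. In replicate 1 the 5 sites were 287 to 430 bp wide, with a median of 368 bp. The median was 175 bp over the whole replicate 1 list and 311 bp for all replicate 1 peaks that recurred.

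**Figure D3:**
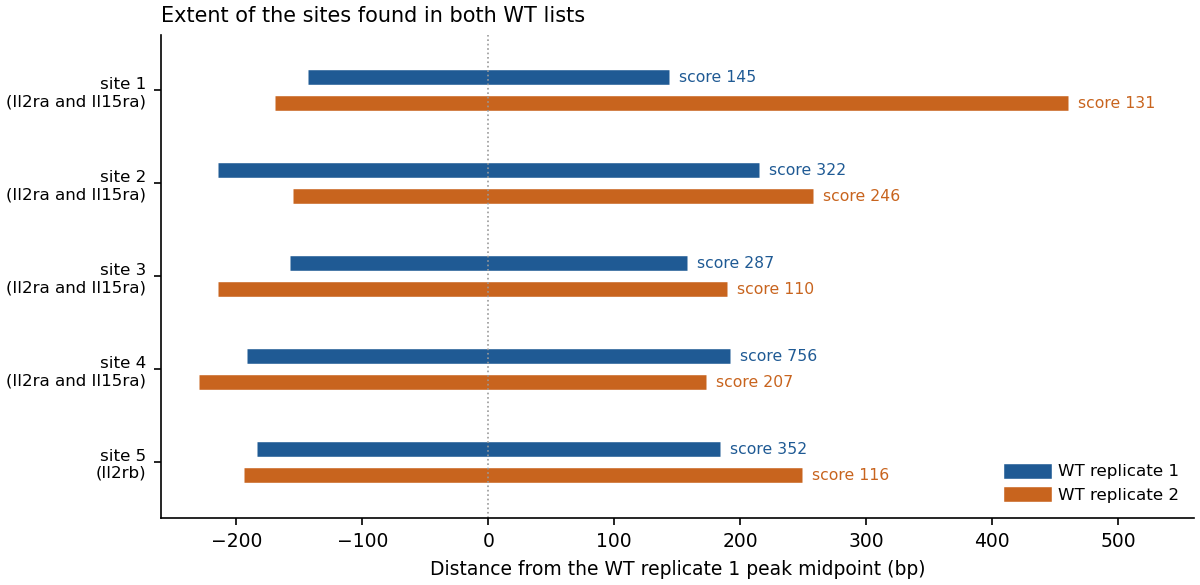
Extent of the 5 sites in WT replicate 1 (blue) and WT replicate 2 (orange), in bp from the replicate 1 midpoint, with each peak's deposited score beside its bar. Sites 2 to 5 have nearly the same outline in both lists, and at site 1 the replicate 2 peak is 630 bp wide against 287 bp.

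Both windows were dense in peaks. Replicate 1 had 40.9 peaks per Mb in the Il2ra and Il15ra window (exact 95% Poisson interval 18.7 to 77.7, counting error only) and 41.2 (16.6 to 84.8) in the Il2rb window. The list had 3.03 per Mb over the autosomes and X, so the windows were 13.5-fold and 13.6-fold denser. Replicate 2 had 18.2 (4.95 to 46.6) and 5.88 (0.149 to 32.8) per Mb, against 0.322 over the autosomes and X. The replicate 1 densities of the windows were nearly equal, and the replicate 2 intervals, on 4 peaks and 1 peak, overlapped.

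Equal-sized bins laid side by side over the autosomes and X gave a further background. Of 11985 bins of 220 kb, 0.601% held at least 9 replicate 1 peaks, and 0.192% held at least 4 that met replicate 2, as the Il2ra and Il15ra window did. Of 15512 bins of 170 kb, 0.761% held at least 7 replicate 1 peaks, as the Il2rb window did. At least 1 replicate 1 peak that met replicate 2 was held by 3.51%, so the single shared site of Il2rb was less rare. The bins cover gene-poor sequence too, while the windows were laid around genes with peaks already known, so these shares describe the windows and test nothing.

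**Figure D4:**
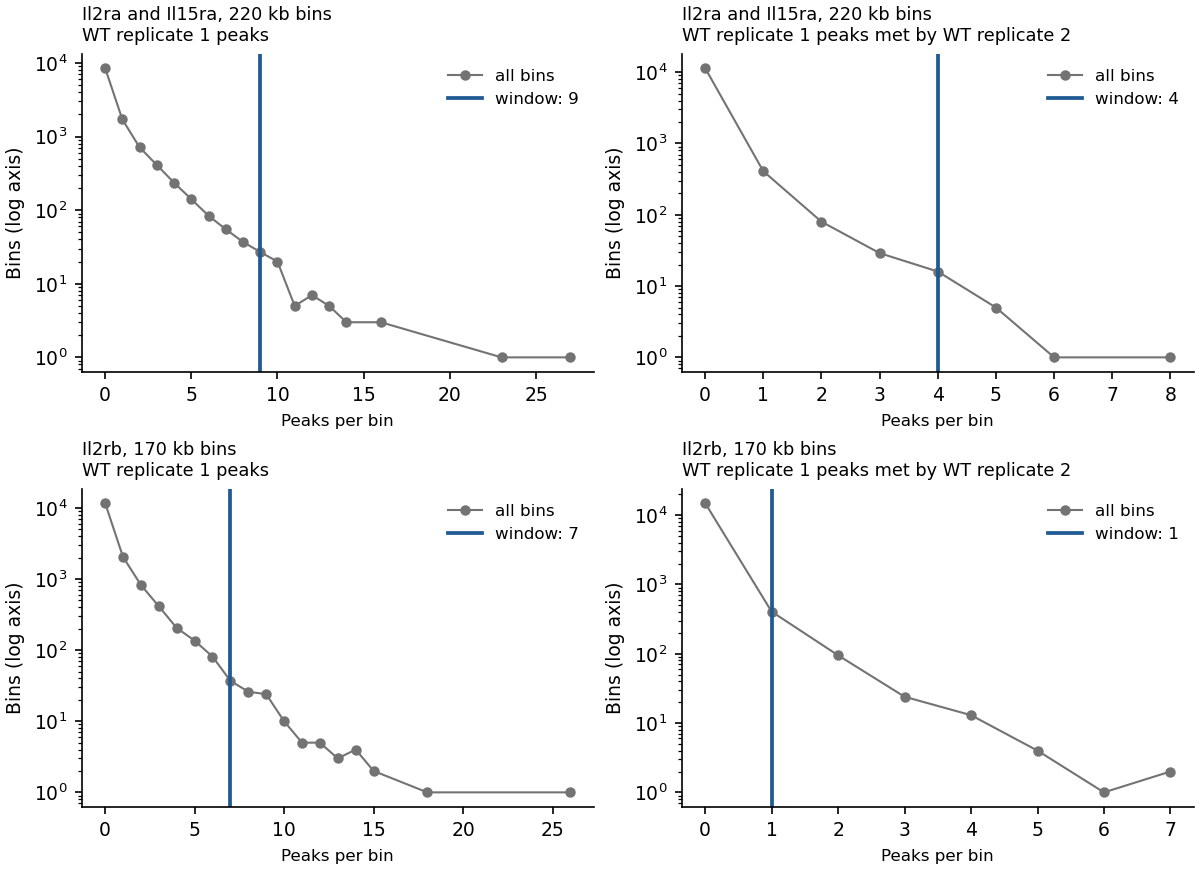
Number of bins (log axis) by number of peaks per bin, for WT replicate 1 peaks (left) and those met by WT replicate 2 (right), in bins as long as the Il2ra and Il15ra window (top) and the Il2rb window (bottom). Blue lines mark the windows, with 9 and 4 peaks at the top and 7 and 1 at the bottom; most bins hold 0.

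Neighbouring replicate 1 peaks were 1.84 to 36.9 kb apart in the Il2ra and Il15ra window, with a median of 10.5 kb. In the Il2rb window the gaps ran from 0.732 to 46.1 kb, with a median of 20.1 kb. The median over the list was 60.5 kb. Gaps inside a window are capped by its length, and the windows were laid around genes with peaks already known. The shorter medians therefore describe the windows and test nothing. On the wider chromosome the 4 replicate 2 peaks stood alone. No other peak of that list lay between 3577082 and 28712798 on chromosome 2, a stretch of 25.1 Mb in which replicate 1 had 108 peaks. On chromosome 15, site 5 was the only replicate 2 peak between 73254561 and 78444933, a stretch of 5.19 Mb where replicate 1 had 29. It lay near the high end of that stretch, which was closed by a replicate 2 peak 44.9 kb outside the window. Replicate 2 had 60 peaks on chromosome 2 and 31 on chromosome 15. How usual such stretches are was not tested.

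The window limits left out nearby peaks, and those left out differ between the windows. Widening by 50 kb on each side took replicate 1 from 9 to 12 peaks in the Il2ra and Il15ra window. In the Il2rb window it went from 7 to 9. The added peaks lay below the Il2ra and Il15ra window and above the Il2rb window. Below the Il2ra and Il15ra window the nearest replicate 1 peak ended 4.15 kb outside, with a score of 91.48 and no replicate 2 counterpart; the lowest-coordinate peak inside scored 126.07. Above it, past site 4, the next replicate 1 peak was 281 kb outside and scored 109.11. Beyond the high-coordinate edge of the Il2rb window, where the last peak inside scored 101.86, replicate 1 had peaks 22.3 and 44.9 kb outside with scores of 282.19 and 339.04. The farther of these, from 78444949 to 78445299, met a replicate 2 peak with a score of 82.61. On the low-coordinate side the nearest peak was 311 kb outside and scored 143.63.

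The KO library, which serves as the background of the serum, had no peak in either window. Its nearest peaks on these chromosomes were 4.90 Mb from the Il2ra and Il15ra window and 6.61 Mb from the Il2rb window. With 78 peaks in the list, only 0.484% of 220 kb bins and 0.367% of 170 kb bins held a KO peak. Of WT peaks over the whole lists, 0.550% in replicate 1 and 5.41% in replicate 2 met one. An empty window is thus the usual case for this list, and it does not show that KO cells had no signal at these sites.

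The counts depend on the lists in known ways. Without replicate 2 the number of WT peaks with no KO counterpart was 9 in the Il2ra and Il15ra window, in place of 4. In the Il2rb window it was 7, in place of 1. These are all the replicate 1 peaks of the windows. Over the whole list, only 0.550% of replicate 1 peaks met a KO peak. When only peaks scoring 100 or more were kept, in both WT lists, the recurring share of replicate 1 became 66.7% (of 6) and 25.0% (of 4), while over the whole list it was 9.28% of 4582 peaks. Replicate 1 also differs from the other lists in the leading number of its deposited name, the meaning of which the sources do not give, so what that number marks cannot be told apart from the difference between the WT replicates.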

How the data were processed

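T-bet ChIP-seq peak lists of 2 WT libraries and 1 KO library were used; the 3 input libraries were not analysed here. Per the labels' protocols, chromatin was crosslinked for 20 minutes, and libraries of 150 to 350 bp were read from one end for 35 or 50 bases. Per the submitters' processing notes, CASAVA, Bowtie2, MACS 1.4 and mm9 were used; the settings and the control of each call are not stated there. Each list had been called on 1 library. The deposited score of each peak comes from the authors' peak caller, and its scale is not stated. Sequencing depth is unknown.

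Samples were grouped by title. Peaks overlapping a window by at least 1 bp are members, and overlap by at least 1 bp counts as shared; positions are mm9, counted from 1. The members and gene lists were chosen with earlier results of these data known. Described in full are sites in both WT lists and, per window, the 3 highest replicate 1 peaks without a counterpart. Other pathway genes (Il2rg, Jak3, Stat5a and the like) and a motif search within peaks were planned but not placed, for want of mm9 annotation and sequence. Intervals of shares and densities are exact (binomial for shares, Poisson for densities) and cover counting error over peaks only. Those of medians were taken from the ordered values, or were their range where peaks were few. No test between groups was made, with 2 WT libraries and 1 KO library. Overlap counting was tested on simulated data. Chromosome lengths came from GenomeInfoDb 1.38.1 (R 4.3.3); overlaps and figures used scipy 1.17.1, numpy 2.4.6 and matplotlib 3.10.9 under Python 3.11.15.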

Additional observations from a re-analysis of the deposited data

How the results depend on the processing

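Under other settings, 70 values were recomputed for 20 results. Of these, 65 stayed within the interval of the main value, or within 1.5 times a count, and 5 moved. For medians the interval was taken from the ordered values, or was their range where peaks were few. Settings that changed only the KO list could not move a value, with the nearest KO peaks 4.90 and 6.61 Mb from the windows. Many intervals rest on few peaks and are too wide for most values to leave. The tally therefore does not measure robustness. With WT replicate 1 shortened to its 851 highest peaks, the share of its peaks met by replicate 2 became 100% in both windows. This rests on 3 peaks for Il2ra and Il15ra and 1 for Il2rb, and site 1, at rank 2461, drops out. The share over all 851 peaks is not given here. Recurring replicate 1 peaks scored higher over the whole list (median 261 against 103), so 9.50% is not the background for this cut. When either WT replicate was left out, sites in WT without a KO counterpart numbered 4 to 9 in the Il2ra and Il15ra window. In the Il2rb window they numbered 1 to 7. These are the peak counts of the list that remained, as the windows held no KO peak. Widening the Il2rb window by 50 kb on each side moved the replicate 2 median score from 116 to 99.2, on 2 peaks. The main value rested on 1 peak, so its interval had no width and any change counted as moved. A reciprocal overlap of 50% kept 3 of the 4 shared sites of the Il2ra and Il15ra window. Scores of at least 100, midpoints within 250 bp, merging within 500 bp, KO peaks extended by 1 kb and no KO filter kept all 5 shared sites by count. The KO count was 0 throughout. No paired analysis was possible because KO cells gave a single ChIP library and replicate numbers are otherwise shared only with WT inputs, which were not used. The motif alternative was not run, for want of an mm9 sequence. Unknown depth limits every comparison of list lengths.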
